A study of Homo sapiens with 18 samples.

Results

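The histone modifications at 8 genes for receptor tyrosine kinases were examined in MOLM-13, an established line of human acute myeloid leukemia cells in which KMT2A is rearranged. The genes are FLT3, KIT, CSF1R, PDGFRA and PDGFRB, whose products form the class III receptor family, and AXL, MERTK and TYRO3, whose products form the TAM family. A listed interval was taken as belonging to a gene when it overlapped the gene body with 10 kb on either side (GENCODE release 44, hg38). This gave 253 of the 275391 listed intervals, made up of 72 H3K27ac, 16 H3K27me3, 111 H3K4me1 and 54 H3K4me3 intervals. Of these, 119 lay within 2 kb of an annotated start of the gene and are called promoter intervals, 87 lay elsewhere in a gene body, and 47 lay in the flanks. CSF1R and PDGFRB are neighbours and share 15 of the intervals. The cells had been treated with 100 nM PR-957 (ONX-0914), an inhibitor of the immunoproteasome subunit PSMB8, or with DMSO as the diluent, for 72 h by the labels, although a legend in the study gives a shorter time. Cut&Tag, in which an antibody directs the Tn5 transposase to cut and tag the DNA around a modified histone, was performed with 2 libraries for each treatment and modification, 16 in all. All libraries come from this 1 cell line, and nothing in the labels says that the 2 libraries came from separate cultures, so the p-values measure only the spread between these libraries.

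Receptor tyrosine kinases bind a ligand outside the cell and pass the signal on through phosphorylated tyrosines to RAS, PI3K and STAT proteins. FLT3 is the receptor for FLT3LG on blood progenitors and is activated by mutation in many acute myeloid leukemias, KIT is the receptor for stem cell factor (KITLG), and CSF1R is the receptor for CSF1 and IL34 that monocytes and macrophages depend on. PDGFRA and PDGFRB bind platelet-derived growth factors and are best known from mesenchymal cells, while AXL, MERTK and TYRO3 bind GAS6 and PROS1 and act in the clearance of dying cells. H3K4me3 marks active or poised promoters, H3K27ac active promoters and enhancers, H3K4me1 enhancers and promoter flanks, and H3K27me3 is laid down by the Polycomb complex at silent genes, most often where the DNA is rich in CpG dinucleotides.

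The DNA just upstream of the starts differed in CpG content between these genes. All 8 genes had an entry in the RefSeq promoter table (GRCh38.p14), with 12 starts in all, and 6 of them are shown. FLT3 and both PDGFRA starts are included because these genes hold the called changes, although those of FLT3 lie inside the gene, away from its start. KIT, CSF1R and AXL show starts rich and poor in CpG. Each line gives bases 250 to 71 before the start, 5′ to 3′ on the strand of the gene, with every CpG in capitals.
FLT3: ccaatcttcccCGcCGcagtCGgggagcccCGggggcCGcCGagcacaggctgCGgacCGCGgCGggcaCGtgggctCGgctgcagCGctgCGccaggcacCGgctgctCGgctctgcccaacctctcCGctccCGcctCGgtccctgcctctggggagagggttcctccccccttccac
KIT: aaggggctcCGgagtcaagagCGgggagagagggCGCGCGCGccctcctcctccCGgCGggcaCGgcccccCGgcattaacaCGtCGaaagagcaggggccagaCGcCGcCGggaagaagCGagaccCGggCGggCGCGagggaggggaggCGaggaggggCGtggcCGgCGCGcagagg
PDGFRA, canonical start: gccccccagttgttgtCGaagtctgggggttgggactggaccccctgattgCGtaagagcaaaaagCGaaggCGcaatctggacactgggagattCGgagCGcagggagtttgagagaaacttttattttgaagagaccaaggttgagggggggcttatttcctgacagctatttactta
PDGFRA, second start: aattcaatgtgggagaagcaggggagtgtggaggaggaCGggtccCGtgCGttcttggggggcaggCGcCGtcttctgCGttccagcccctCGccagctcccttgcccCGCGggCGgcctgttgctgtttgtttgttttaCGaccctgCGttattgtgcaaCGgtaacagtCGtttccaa
CSF1R, canonical start: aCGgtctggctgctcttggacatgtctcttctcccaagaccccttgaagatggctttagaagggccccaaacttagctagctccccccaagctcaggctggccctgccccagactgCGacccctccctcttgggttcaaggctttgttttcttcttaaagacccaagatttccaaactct
AXL, canonical start: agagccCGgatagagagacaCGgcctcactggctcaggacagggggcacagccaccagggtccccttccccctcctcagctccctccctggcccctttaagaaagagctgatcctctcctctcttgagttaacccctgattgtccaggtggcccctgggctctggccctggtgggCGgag

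These stretches are chr13:28100647-28100826, chr4:54657707-54657886, chr4:54229043-54229222, chr4:54233710-54233889, chr5:150086625-150086804 and chr19:41218973-41219152, with FLT3 and CSF1R on the minus strand. The letters CG, which read the same on both strands, occurred 25 times in the KIT stretch, a number that only 6% of the 35116 promoters in the table reach, and 19 times in that of FLT3, which 16.8% reach. The median over the table was 7. The canonical PDGFRA start had 6 and the second PDGFRA start, in intron 1, had 14. The canonical starts of CSF1R and AXL had 2 and 3, fewer than most promoters, and MERTK and TYRO3 had 15 and 33 at their canonical starts.

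The total count of an H3K27ac library was 9885836 to 14165777, of an H3K27me3 library 10032503 to 12047958, of an H3K4me1 library 15204186 to 30584219 and of an H3K4me3 library 30070119 to 44591150. On simulated counts, edgeR recovered 56.5%, 36.5%, 65.5% and 90.5% of intervals changed 2-fold, in the same order, and 25.5%, 19.5%, 24.5% and 67.5% of those changed 1.5-fold. The myeloid label was checked by listed intervals within 2 kb of a start. H3K27ac was listed at 9 of 10 myeloid markers, with SPI1, the myeloid transcription factor PU.1, at 9.56 CPM (counts scaled to a common library total) per kb in DMSO, and H3K27me3 at none of the 10. No H3K27ac was listed at CD3E, CD3D, CD3G, MS4A1 or GATA1, the defining markers of T cells, B cells and erythroid cells in the lists, while H3K27ac was listed at 3 of 5 B cell markers and at 1 of 5 in each of the T cell, erythroid and megakaryocyte, and epithelial and stromal lists, among them EPOR at 6.77 CPM per kb.

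Between PR-957 and DMSO, most of these intervals differed by less than the test could call. The exceptions were H3K27me3 at PDGFRA, which fell, and H3K4me1 at 1 locus in the body of FLT3, which was higher. The FLT3 calls did not hold with DESeq2 or with offsets for GC content. By edgeR's quasi-likelihood test with Benjamini-Hochberg adjustment over all intervals of a modification, 4 of the 15 tested H3K27me3 intervals passed 0.05, all lower and all at PDGFRA, against 5.92% of all tested H3K27me3 intervals. Among the promoter intervals of highest mean count of all protein-coding genes, 11.8% passed in H3K27me3. For H3K4me1, 3 of 111 passed, all higher and all in FLT3. This share, 2.7%, is near the 1.94% of all, and 0 passed by DESeq2. For H3K27ac, 0 of 72 passed, against 0.238% of all, with 10 at an unadjusted p under 0.05, against 8.01% of all, and 0 by DESeq2. Over all H3K27ac intervals 0.0644% were called higher and 0.173% lower. For H3K4me3, 0 of 54 passed, against 0.226% of all, with 4 at an unadjusted p under 0.05, against 7.52% of all, and 0 by DESeq2. Over all H3K4me3 intervals 0.181% were called higher and 0.0456% lower, and in H3K4me1 1.24% and 0.701%. The intervals overlap one another, and the 4 PDGFRA calls fall in 1 locus, as do the 3 FLT3 calls.

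Levels between genes were compared per kb of interval, using for each gene the promoter interval with the highest mean count. FLT3 stood first for H3K27ac and H3K4me3, CSF1R for H3K4me1 and PDGFRA for H3K27me3. For H3K27ac in DMSO, FLT3 had 7.69 ± 0.093 CPM per kb (SD, n = 2), CSF1R 2.74 ± 0.27, AXL 2.39 ± 0.34, PDGFRB 1.51 ± 0.19, TYRO3 1.24 ± 0.30 and KIT 0.603 ± 0.41, and none was listed at MERTK or PDGFRA. In that order the ranges of CSF1R and AXL overlapped, as did those of PDGFRB and TYRO3. The order uses any annotated start. The CSF1R interval lies at the 3′ end of the gene and near a start of HMGXB3, and that of PDGFRB lies at the upstream start of CSF1R. At the canonical starts, CSF1R had 1.88 and AXL 1.48 CPM per kb, and no H3K27ac was listed at PDGFRB. For H3K4me3, FLT3 had 5.04 ± 0.17 CPM per kb, the other 6 genes with an interval had between 1.37 and 2.22, and none was listed at PDGFRB. TYRO3, CSF1R and PDGFRA had overlapping ranges there, and so did KIT and AXL. The H3K4me3 intervals of PDGFRA and AXL in this order lie at other starts. Their intervals at the canonical starts had 0.470 and 0.786 CPM per kb.

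For H3K4me1, CSF1R had 5.02 ± 0.47 CPM per kb and AXL 3.87 ± 0.18, apart from each other and from the remaining 6 genes, which had 0.703 to 1.80. PDGFRA and TYRO3, TYRO3 and KIT, and KIT and MERTK did not separate. Within 2 kb of the canonical start, CSF1R had 4.22 and PDGFRB 0.669 CPM per kb of H3K4me1, and none was listed at KIT. H3K27me3 was listed at PDGFRA with 7.24 ± 0.20 CPM per kb, and at TYRO3, KIT and MERTK with 2.07, 1.90 and 0.910, of which TYRO3 and KIT overlapped. It was not listed at FLT3, CSF1R, AXL or PDGFRB.

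**Figure D1:**
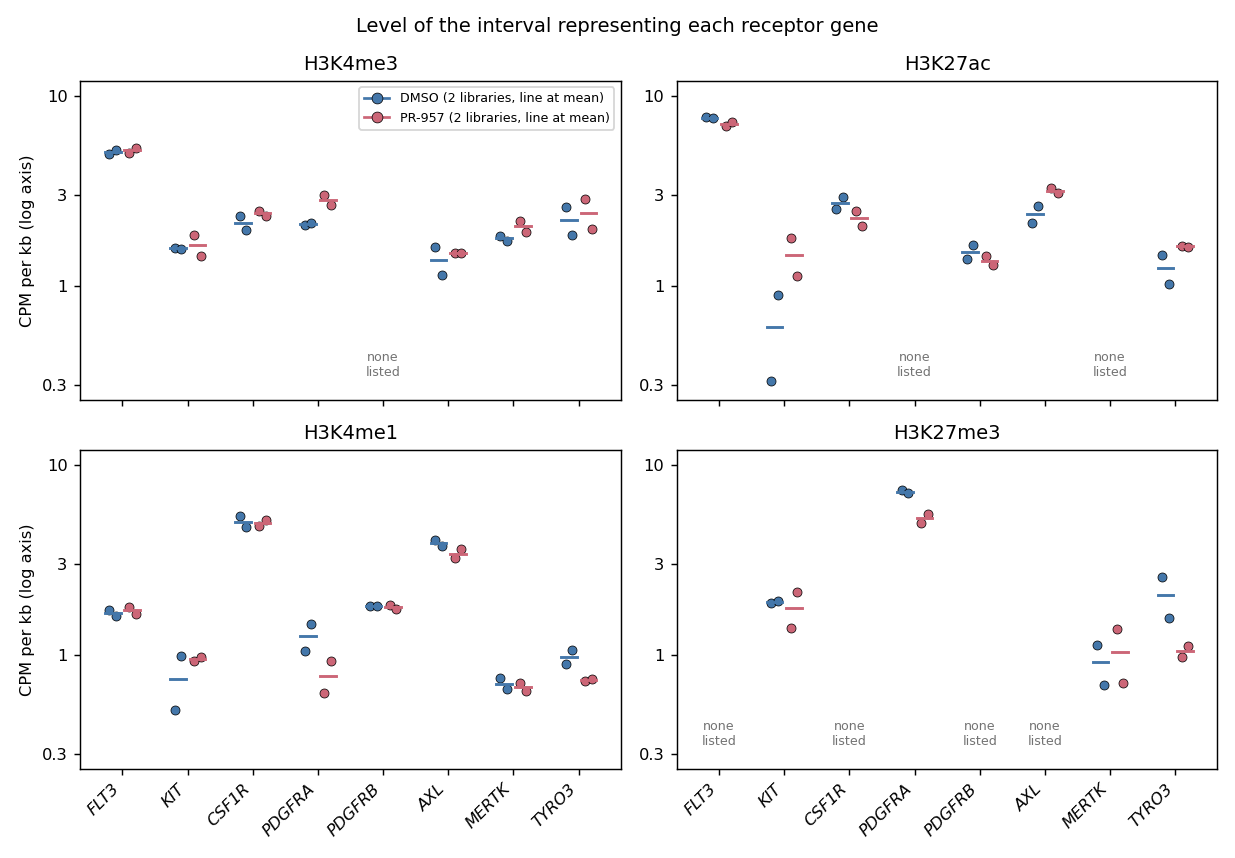
Level of the promoter interval that represents each gene, in CPM per kb on a log axis, with 1 point per library and a line at the mean of the 2 DMSO (blue) or 2 PR-957 (red) libraries. Promoter intervals lie near any annotated start, which need not be the canonical start. FLT3 has the highest H3K27ac and H3K4me3 of the 8 genes, and in H3K27me3 the PR-957 points of PDGFRA lie below its DMSO points.

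**Figure D2:**
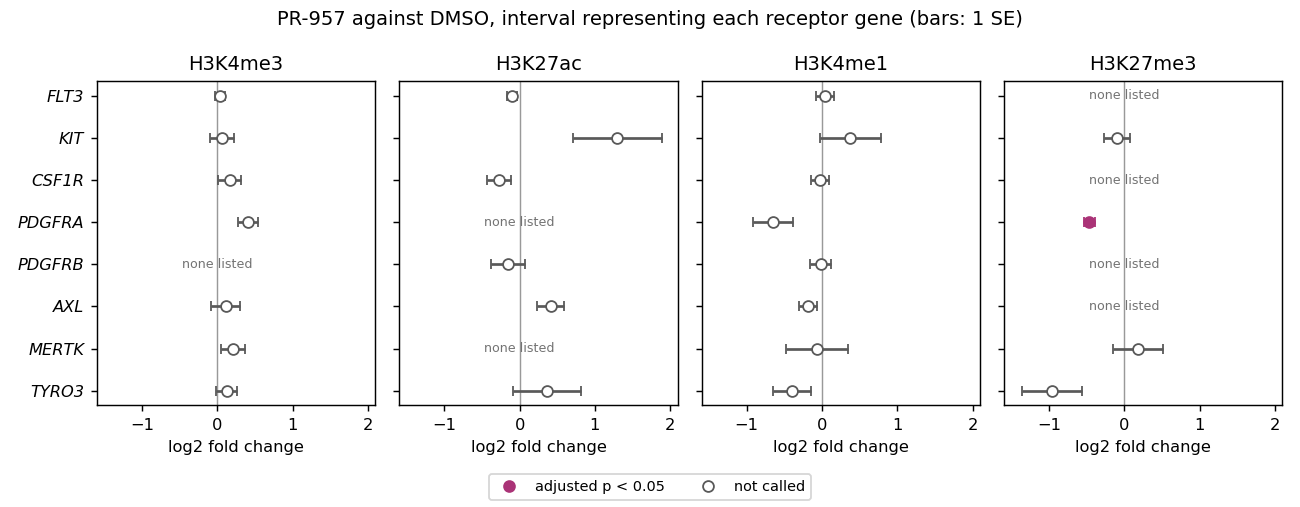
Log2 fold change of PR-957 against DMSO for the same intervals, with bars of 1 SE from edgeR. Of the intervals drawn, only that of PDGFRA in H3K27me3 passed an adjusted p of 0.05 (filled), at -0.47.

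FLT3 (chr13:28003274-28100592, minus strand) carried broad H3K27ac and H3K4me3 at its start and several separate stretches of H3K4me1 inside the gene. The H3K27ac promoter interval chr13:28091831-28103528 spans exon 1 and part of intron 1 and is 11.7 kb wide, wider than 97.4% of the 12091 intervals that represent protein-coding genes, with a level per kb above 82.2% of them. With DMSO it had 90.7 and 89.1 CPM, with PR-957 81.4 and 85.8. Both PR-957 values lay below both DMSO values, but the log2 fold change of -0.10 ± 0.066 (SE) did not pass (adjusted p = 0.75 in edgeR). H3K4me3 over chr13:28092141-28103098 had 53.9 and 56.6 CPM in DMSO and 55.0 and 58.3 in PR-957, with overlapping groups and a log2 fold change of 0.04 ± 0.07.

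Over the whole gene, 15 of the 17 H3K27ac intervals of FLT3 had a negative log2 fold change, with a median of -0.30 against 0.00 for all H3K27ac intervals. In 14 of the 17 the 2 PR-957 libraries did not overlap the 2 DMSO libraries, against 36.9% of all tested H3K27ac intervals, and none passed the test. The interval with the smallest p, chr13:28095242-28104008 at the start, had 86.8 and 83.7 CPM in DMSO and 75.1 and 80.1 in PR-957 (log2 fold change -0.13 ± 0.068, adjusted p = 0.618 in edgeR). The 17 intervals form 5 loci, so these counts repeat the same reads. Outside the promoter, H3K27ac was listed 6.09 kb upstream of the start, in intron 15 at chr13:28030429-28033755, around exon 4 at chr13:28055595-28058254 and beyond the 3′ end at chr13:27999895-28002971.

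H3K4me1 varied along FLT3, and its highest levels per kb lay inside the gene. The representing interval chr13:28099740-28111511 had 1.66 CPM per kb in DMSO, whereas chr13:28029088-28036473 (exons 11 to 15) had 4.85 and chr13:28052300-28062119 (exons 3 to 5) had 3.25, and chr13:28077177-28079763 in intron 1 had 1.08. The first and second of these intragenic intervals had log2 fold changes of -0.03 ± 0.11 and 0.06 ± 0.11, neither past the test. The DNA between these 2 holds the called intervals.

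In PR-957, H3K4me1 was higher around exons 7 to 9 of FLT3, from 50.8 kb downstream of the start. The interval chr13:28040207-28049174 had 8.77 and 9.07 CPM in DMSO against 13.2 and 12.7 in PR-957 (log2 fold change 0.54 ± 0.14, adjusted p = 0.0164 in edgeR). Overlapping it, chr13:28046649-28049797 (exons 7 to 9) had 2.07 and 3.05 CPM in DMSO and 5.20 and 4.44 in PR-957 (log2 fold change 0.92 ± 0.24, adjusted p = 0.0176). The third call, chr13:28046441-28049497, covers almost the same DNA, with a log2 fold change of 0.89 ± 0.24 (adjusted p = 0.0229). In all 3 both PR-957 libraries lay above both DMSO libraries, as non-overlapping groups did in 46.7% of all tested H3K4me1 intervals. The level in PR-957 over the first of them, 1.45 CPM per kb, stayed below that of the neighbouring stretches.

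These 3 calls did not hold under every processing. None of them passed with DESeq2, where the first had a log2 fold change of 0.54 and an adjusted p of 0.29 and only 4 H3K4me1 intervals of all passed, against 2099 in edgeR, and none passed with offsets for GC content, where it was 0.43 (adjusted p = 0.0967). Leaving out DMSO replicate 1 ended all 3 calls (0.51, adjusted p = 0.179), and so did leaving out PR-957 replicate 1 (0.51, adjusted p = 0.132). Without DMSO replicate 2 the first interval did not pass (0.56, adjusted p = 0.0864), although 2 H3K4me1 intervals of the 8 genes did. Without PR-957 replicate 2 it passed narrowly (0.57, adjusted p = 0.0499), and the lowest and highest adjusted p among the alternatives were 0.0072 and 0.29. The DNA there is AT-rich, against a median GC content of 46.3% over all H3K4me1 intervals. Of these, 22.4% had a lower GC content than the first interval, to which the values above belong. For chr13:28046649-28049797, with a GC content of 40%, the share was 10.4%. The part of GC content in the difference was not tested beyond the offsets. The 300 bases at the middle of that interval, chr13:28048074-28048373 (hg38, minus strand), are shown to make this visible beside the promoter of the same gene. They hold 4 CpG, in capitals, and overlap exon 9.
FLT3, middle of the H3K4me1 interval: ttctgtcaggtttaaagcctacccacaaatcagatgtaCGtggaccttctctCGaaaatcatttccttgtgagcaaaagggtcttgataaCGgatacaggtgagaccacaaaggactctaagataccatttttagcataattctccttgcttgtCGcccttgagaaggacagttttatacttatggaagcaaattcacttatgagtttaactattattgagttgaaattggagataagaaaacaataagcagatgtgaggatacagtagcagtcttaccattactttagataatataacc

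**Figure D3:**
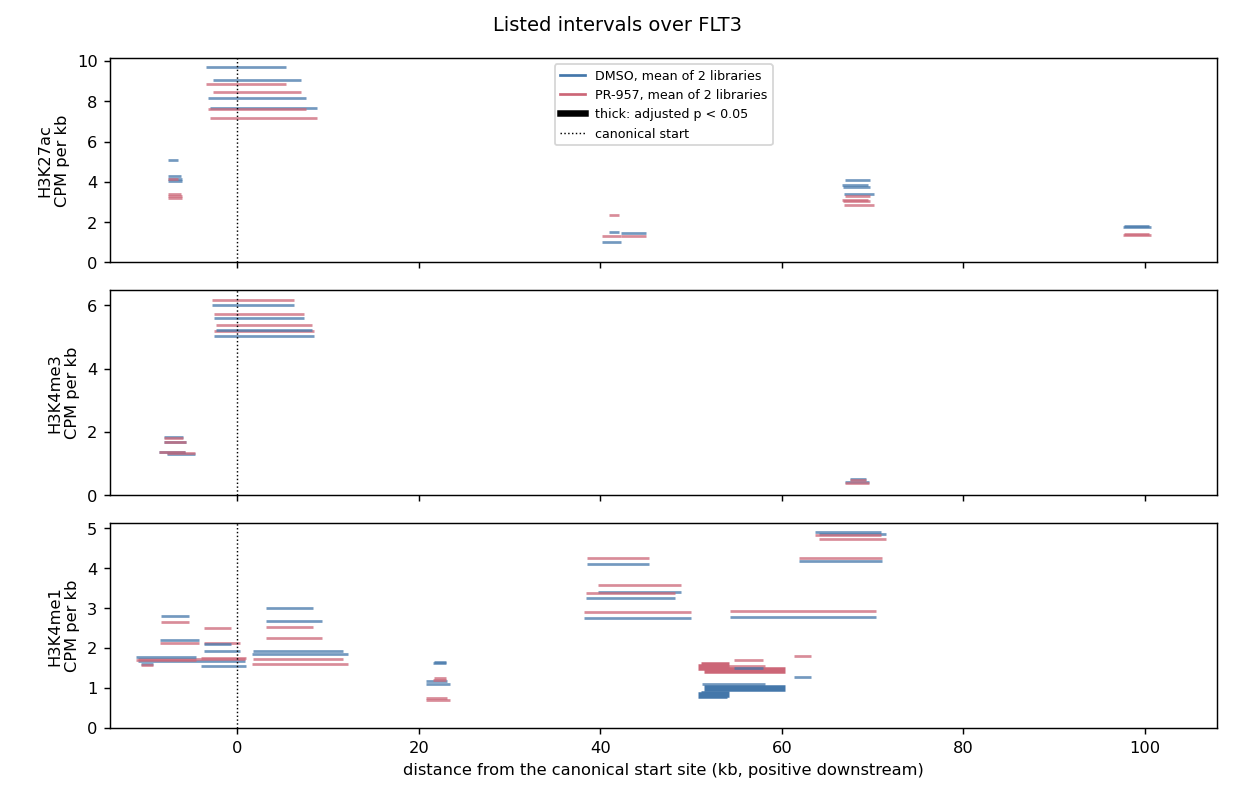
Listed intervals over FLT3, drawn as lines from their first to their last base at their mean CPM per kb in DMSO (blue) and PR-957 (red), against the distance from the canonical start in kb. The 3 H3K4me1 intervals with an adjusted p under 0.05 are thick, begin 50.8 to 51.4 kb downstream and are higher in PR-957, while the H3K27ac and H3K4me3 intervals hold no call.

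KIT (chr4:54657267-54740783) carried H3K27me3 and H3K4me3 together at its CpG-rich start, with little H3K27ac there. The H3K27me3 interval chr4:54654890-54662192 spans 7.3 kb around exon 1 and had 13.8 and 14.0 CPM in DMSO and 10.1 and 15.5 in PR-957. The PR-957 libraries lay on either side of the DMSO libraries (log2 fold change -0.10 ± 0.17). H3K4me3 over chr4:54656913-54660676 had 5.97 and 5.86 CPM in DMSO and 6.96 and 5.42 in PR-957 (0.06 ± 0.16). The H3K27ac interval chr4:54657456-54659150 was the weakest of the representing intervals, above only 0.529% of those of protein-coding genes per kb. It had 7 and 15 reads in DMSO and 30 and 27 in PR-957, and this difference did not pass (adjusted p = 0.532 in edgeR).

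Away from the start, KIT had H3K27ac and H3K4me1 in intron 1, at chr4:54687246-54688994 and chr4:54682472-54690023, of which the H3K27ac interval lies 29.3 kb downstream of the start. The H3K27ac interval had 6.51 and 5.14 CPM in DMSO and 5.74 and 4.43 in PR-957, with overlapping groups (log2 fold change -0.22 ± 0.26). A further H3K4me1 stretch covers exons 6 and 7, and another lies past the 3′ end, where chr4:54741815-54744325 had 8.88 and 7.53 CPM in DMSO and 10.4 and 10.5 in PR-957 (log2 fold change 0.35 ± 0.15, adjusted p = 0.204). The H3K4me1 interval that represents KIT, chr4:54737036-54738832, lies at exons 20 and 21 beside the start of a short annotated transcript, and no H3K4me1 was listed within 2 kb of the canonical start.

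PDGFRA (chr4:54229280-54298245) was the only 1 of the 8 genes with a called change at its promoter, a loss of H3K27me3. A continuous stretch of 7 overlapping H3K27me3 intervals, 19.6 kb long in all, runs across its start. The representing interval chr4:54218980-54234429 had 114 and 109.6 CPM in DMSO and 76.6 and 85.0 in PR-957, and its level per kb in DMSO was above 87.9% of the 3976 protein-coding genes with such an interval. The log2 fold change was -0.47 ± 0.071 (adjusted p = 5.11e-08 in edgeR), and both PR-957 libraries lay below both DMSO libraries, as non-overlapping groups did in 44.2% of all tested H3K27me3 intervals. The other 3 called intervals, which cover nearly the same DNA, had log2 fold changes of -0.44 to -0.47, and the 3 short intervals at the upstream edge, 8.59 to 9.02 kb from the start, had -0.28 to -0.35 and did not pass.

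The PDGFRA call held under all 16 settings run for it (the main one, other normalizations, filters, tools, start windows and left-out libraries), with log2 fold changes from -0.30, for library size alone, to -0.55, without PR-957 replicate 2. The start windows and the canonical start only choose which interval is taken and involve no new fit. The canonical start chose the same interval. Library size alone moved the median of all H3K27me3 intervals from 0.02 to 0.18. Relative to that median the change at PDGFRA was -0.48 under both scalings (-0.36 with cyclic loess offsets). A change of library scaling shifts all intervals nearly alike, so the equal values were fixed in advance and are no further test of PDGFRA. Lower H3K27me3 was common in these libraries, with 5.09% of all tested intervals called lower and 0.824% called higher, so that the direction at PDGFRA is that of most called intervals. Of the intervals that represent protein-coding genes, 11.8% were called.

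The active modifications at PDGFRA were weak and lay at separate places. H3K4me3 was highest from 2.6 kb downstream of the canonical start, at chr4:54231890-54235045 in intron 1, over the second RefSeq start whose upstream sequence holds 14 CpG. It had 6.62 and 6.77 CPM in DMSO and 9.45 and 8.39 in PR-957 (log2 fold change 0.41 ± 0.13, adjusted p = 0.233 in edgeR). The smallest p of the 5 H3K4me3 intervals was that of chr4:54232537-54235331, at 0.42 ± 0.14 (adjusted p = 0.216), and in 4 of the 5, which overlap, the groups did not overlap, against 36.6% of all tested H3K4me3 intervals. H3K4me1 just upstream of the canonical start, at chr4:54225917-54228888, had 3.12 and 4.31 CPM in DMSO and 1.86 and 2.74 in PR-957 (log2 fold change -0.65 ± 0.26, adjusted p = 0.173). No H3K27ac interval was listed at PDGFRA or in its flanks.

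**Figure D4:**
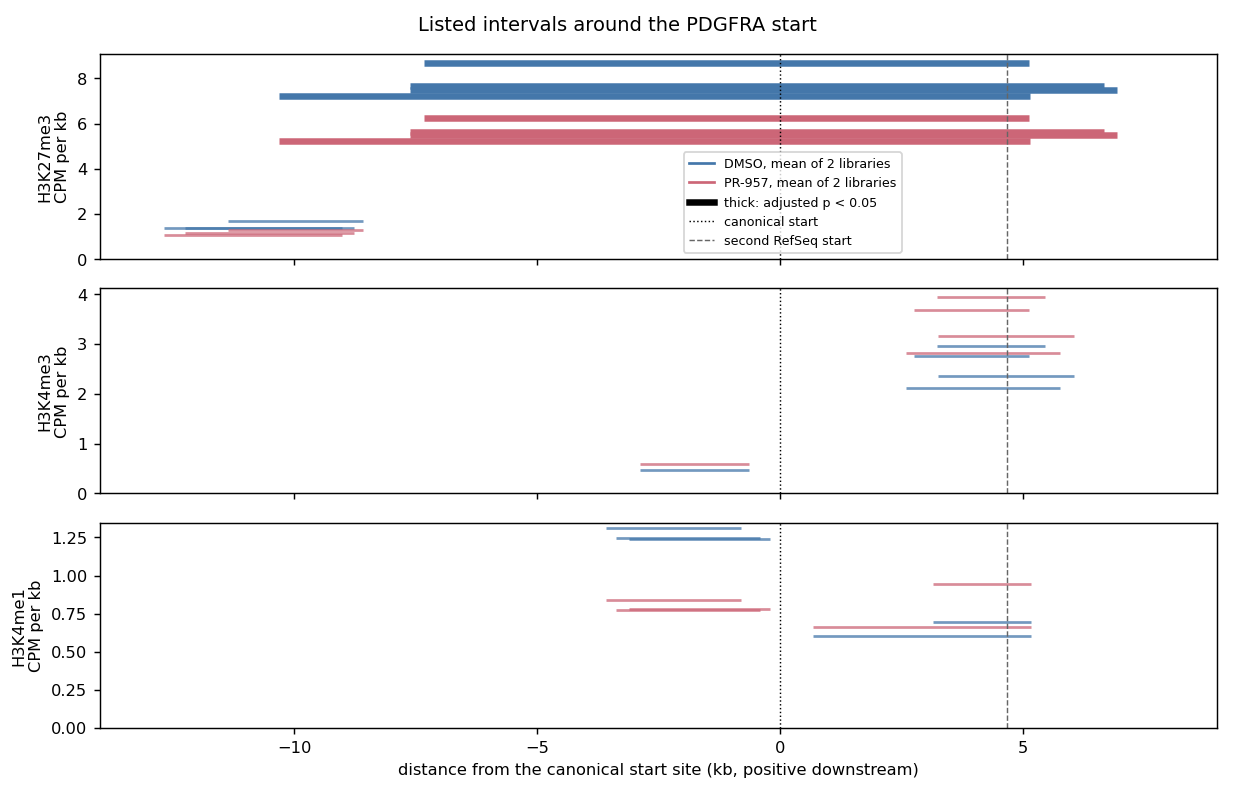
Listed intervals around the PDGFRA start, drawn as lines at their mean CPM per kb in DMSO (blue) and PR-957 (red), against the distance from the canonical start in kb, with a dashed line at the second RefSeq start. The 4 thick H3K27me3 intervals are lower in PR-957 with an adjusted p under 0.05, while none of the H3K4me3 intervals at the second start passed.

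CSF1R (chr5:150053291-150113372, minus strand) had no H3K27me3 and carried H3K4me1 over most of its body. The H3K4me1 interval chr5:150056555-150070103, over exons 9 to 16, had 72.6 and 63.5 CPM in DMSO and 64.3 and 69.7 in PR-957, with overlapping groups (log2 fold change -0.02 ± 0.12). Its level per kb in DMSO was above 98.3% of the 8702 protein-coding genes with an H3K4me1 promoter interval. At the canonical start, chr5:150078994-150089512 had 44.4 ± 1.2 CPM in DMSO and 35.1 ± 1.7 in PR-957 (SD, n = 2), a log2 fold change of -0.34 ± 0.12 that missed the threshold (adjusted p = 0.0897 in edgeR). The smallest p there was that of chr5:150080143-150083373, with 24.8 and 23.8 CPM in DMSO and 17.8 and 20.0 in PR-957 (-0.35 ± 0.12, adjusted p = 0.0811). H3K4me3 at the start, chr5:150084275-150087224, had 6.89 and 5.77 CPM in DMSO and 7.29 and 6.90 in PR-957 (0.16 ± 0.15). No H3K4me3 was listed at the upstream start of the longer CSF1R transcript.

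H3K27ac at CSF1R was split into 12 loci, flanks included, and 19 of its 28 intervals had a negative log2 fold change, none past the test. Its representing interval, chr5:150048670-150054908, covers exons 20 and 21 at the 3′ end and also lies within 2 kb of a start of HMGXB3, so that its signal cannot be given to either gene alone. It had 15.9 and 18.2 CPM in DMSO and 15.4 and 12.9 in PR-957 (log2 fold change -0.28 ± 0.16, adjusted p = 0.702). At the canonical start, chr5:150084662-150087087 had 4.56 ± 1.1 CPM in DMSO and 3.85 ± 0.32 in PR-957.

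PDGFRB (chr5:150113839-150155872, minus strand), which ends next to the upstream start of CSF1R, had no H3K4me3 within 2 kb of any annotated start and no H3K27ac within 2 kb of its canonical start. Its strongest H3K27ac lay inside intron 1, at chr5:150139961-150148018, with 18.9 and 21.3 CPM in DMSO and 14.3 and 18.4 in PR-957 (log2 fold change -0.27 ± 0.15, adjusted p = 0.657). H3K4me1 covered the same stretch, at chr5:150139547-150147504, with 19.3 CPM in DMSO and 18.7 in PR-957 (-0.04 ± 0.12), and a weak H3K4me3 interval, chr5:150142147-150144411, lay within it with 2.33 and 1.61 CPM in DMSO and 2.23 and 1.39 in PR-957. The representing H3K27ac interval, chr5:150111687-150116415, is 1 of those shared with CSF1R, at its upstream start, and had 7.14 CPM in DMSO and 6.40 in PR-957. None of the 40 intervals of PDGFRB had an unadjusted p under 0.05.

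AXL (chr19:41219223-41261766) carried a 21.4 kb interval of H3K4me1, wider than 97.3% of those of protein-coding genes, with narrow H3K4me3 and H3K27ac inside it and no H3K27me3. The H3K4me1 interval chr19:41214328-41235692, over exons 1 to 6, had 85.5 and 80.1 CPM in DMSO and 68.7 and 76.9 in PR-957 (log2 fold change -0.18 ± 0.12, adjusted p = 0.457). H3K27ac was higher per kb in intron 4 than at the canonical start, with 2.39 against 1.48 CPM per kb in DMSO. The intron 4 interval, chr19:41223267-41227628, had 9.38 and 11.5 CPM in DMSO and 14.3 and 13.4 in PR-957, and the interval at the start, chr19:41215996-41220939, had 6.43 and 8.17 in DMSO and 8.96 and 7.04 in PR-957. The first lies over the second RefSeq start of AXL.

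The log2 fold change of the intron 4 interval was 0.41 ± 0.18 and did not pass (adjusted p = 0.495 in edgeR). Of the 13 H3K27ac intervals of AXL, 12 had a positive log2 fold change with a median of 0.15, and 8 had an unadjusted p under 0.05, against 8.01% of all tested H3K27ac intervals. The 13 intervals form 5 loci, so these counts repeat the same reads. All 8 lie in the intron 4 locus or in a locus from exon 20 past the 3′ end, with 4 intervals each. In the other loci the smallest adjusted p was 0.785, 0.980 and 0.871 in edgeR. The interval with the smallest p is not at the AXL start. It is chr19:41261183-41267846, over exon 20, with 107 and 111 CPM in DMSO and 119 and 122 in PR-957 (0.15 ± 0.058, adjusted p = 0.426), and it lies within 2 kb of the start of HNRNPUL1, the next gene. The same place held H3K4me3 (chr19:41260867-41268080) with 57.7 and 61.0 CPM in DMSO and 54.5 and 55.8 in PR-957 (-0.11 ± 0.07), while the interval at the canonical AXL start, chr19:41218723-41222627, had 3.45 and 2.69 CPM in DMSO and 3.48 and 3.83 in PR-957 (0.25 ± 0.23).

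MERTK (chr2:111898607-112029561) had H3K4me3 together with weak H3K27me3 at its start and no H3K27ac in the gene or its flanks. H3K4me3 over chr2:111896804-111899890 had 5.64 and 5.33 CPM in DMSO and 6.73 and 5.94 in PR-957, with both PR-957 libraries above both DMSO libraries (log2 fold change 0.21 ± 0.16, adjusted p = 0.846). H3K27me3 over chr2:111896978-111900918 had 4.44 and 2.73 CPM in DMSO and 5.38 and 2.78 in PR-957 (0.18 ± 0.33). Its strongest H3K4me1 lay 101 kb downstream over exons 11 to 14, at chr2:111999750-112008534, with 18.2 CPM in DMSO and 17.9 in PR-957. Just past it, chr2:112010285-112012083 had 1.52 and 0.962 CPM in DMSO and 2.50 and 2.09 in PR-957 (0.86 ± 0.38, adjusted p = 0.22).

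TYRO3 (chr15:41557675-41583589), whose canonical start has the most CpG of the 8 genes, held all 4 modifications, each in short intervals. H3K4me3 over chr15:41557281-41560288 had 7.79 and 5.57 CPM in DMSO and 8.57 and 6.01 in PR-957, with overlapping groups (log2 fold change 0.12 ± 0.14). H3K27me3 lay just downstream, at chr15:41559696-41561505 over exon 2, with 4.65 and 2.82 CPM in DMSO and 1.76 and 2.01 in PR-957. Both PR-957 values were below both DMSO values, at 19 to 44 reads per library, and the log2 fold change of -0.96 ± 0.40 did not pass (adjusted p = 0.164 in edgeR). H3K27ac over chr15:41558417-41560089 had 2.42 and 1.71 CPM in DMSO and 2.72 and 2.67 in PR-957 (0.36 ± 0.45). An H3K27me3 interval in the downstream flank, chr15:41587923-41589713, had too few reads to be tested and was the only 1 of the 253.

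By the modifications listed within 2 kb of a start, FLT3, CSF1R and AXL held H3K4me3, H3K27ac and H3K4me1 without H3K27me3, as 31% of the 20020 protein-coding genes did. KIT and TYRO3 held all 4 modifications, as 4.96% of protein-coding genes did, MERTK and PDGFRA held H3K4me3, H3K27me3 and H3K4me1, as 2.15% did, and PDGFRB held H3K27ac and H3K4me1. These classes count any annotated start. Within 2 kb of the canonical start, KIT had no H3K4me1 and PDGFRB no H3K27ac. H3K4me3 and H3K27me3 were thus both listed at 4 of the 8 genes, at 26 of 50 other receptor tyrosine kinase genes and at 11.6% of protein-coding genes. The starts need not be the same, and overlap of the intervals was not counted. At LMTK2 and FLT4, for example, the representing intervals of these modifications lay apart. Among those 50 genes, H3K27ac was listed at 23 and H3K27me3 at 34, and 9 had no modification listed at a start, among them KDR, TEK and DDR2. Of their representing intervals 0 of 23 passed in H3K27ac, against 0.48% of those of all protein-coding genes, and 0 of 31 in H3K4me3, against 0.219%. At an unadjusted p under 0.05 there were 4 and 3, against 8.01% and 7.52% of all tested intervals. In H3K27me3 1 of 34 passed, LMTK2, lower, against 11.8% of the intervals that represent protein-coding genes, and in H3K4me1 2 of 25 passed, ERBB3 and STYK1, both lower, against 2.15%. These 3 genes are named after their values were seen.

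The genes most like FLT3 in the level of all 12 H3K27ac, H3K4me1 and H3K4me3 libraries, by Euclidean distance in log2(CPM per kb + 0.1) among 6197 protein-coding genes with the same modifications listed, were ZNF511, with its readthrough transcript ZNF511-PRAP1 on the same intervals, at 0.338 and TUBGCP3 at 0.35. The median gene lay at 2.75. For AXL they were PPM1M at 0.648, FCGRT at 0.891 and ITGAX at 0.891, with a median of 5.14. ITGAX, which encodes an integrin of myeloid cells, had 3.81 CPM per kb of H3K4me1 and 1.65 of H3K4me3 in DMSO, against 3.87 and 1.37 for AXL.

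Of 61 genes for ligands, signal relays, negative regulators and targets of these receptors, 3 representing intervals passed, all lower and all at the phosphatase genes DUSP4 and DUSP6, which switch off MAP kinases. In H3K27me3, 1 of 8 tested genes passed, a share near the 11.8% of intervals representing all protein-coding genes. DUSP4 had 204.9 and 223.3 CPM in DMSO and 170.5 and 175.4 in PR-957 (log2 fold change -0.31 ± 0.057, adjusted p = 1.05e-05 in edgeR). In H3K4me1, 2 of 44 passed, against 2.15% of the intervals representing protein-coding genes. DUSP4 had 12.5 and 16.1 CPM in DMSO and 9.37 and 10.7 in PR-957 (-0.50 ± 0.13, adjusted p = 0.0241), and DUSP6 had 7.72 and 8.82 in DMSO and 4.88 and 5.65 in PR-957 (-0.64 ± 0.17, adjusted p = 0.0242). The H3K27me3 count fell to 0 without DMSO replicate 2, and the H3K4me1 count fell to 0 with DESeq2, with GC offsets and without PR-957 replicate 1, and to 1 without either DMSO replicate. The median log2 fold change over the genes tested was -0.19 in H3K27me3 and -0.12 in H3K4me1, against 0.02 and -0.0011 over all intervals, most of which represent no gene. In H3K4me1 it was also negative over the other receptor tyrosine kinases (-0.12) and the cell type markers (-0.20), so it was not particular to these genes. In H3K27me3 those lists had -0.017 and 0.31.

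In H3K27ac 0 of 54 of these genes passed and in H3K4me3 0 of 58, against 0.48% and 0.219% of the intervals representing protein-coding genes. At an unadjusted p under 0.05 there were 7 and 4, against 8.01% and 7.52% of all tested intervals, and DESeq2 called 0 in each. The smallest p in H3K27ac were those of MCL1, which protects cells from apoptosis, with a log2 fold change of -0.28 ± 0.09 (adjusted p = 0.219), of the cytokine signal inhibitor SOCS2 (-0.15 ± 0.055, adjusted p = 0.39), of the transcription factor MYB (-0.17 ± 0.069, adjusted p = 0.429) and of FOS (0.14 ± 0.063, adjusted p = 0.512). In H3K4me3 they were those of PDGFA, a ligand of PDGFRA, at -0.25 ± 0.093 (adjusted p = 0.358), SHC1 at -0.20 ± 0.075, SRC at 0.40 ± 0.16 and DUSP6 at -0.14 ± 0.072. In H3K27me3 AKT1 had 0.20 ± 0.074 (adjusted p = 0.0977), PDGFA -0.20 ± 0.093 and GAB1 -0.34 ± 0.22, and in H3K4me1 CCND2 had -0.45 ± 0.17 (adjusted p = 0.131) and SLA2 0.79 ± 0.32, none past the threshold.

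By role, the genes differed in which modifications were listed at their starts, given here as counts with no test. H3K27ac was listed at 5 of 10 ligand genes, at 22 of 22 adaptors and relays, at 18 of 20 negative regulators and at 9 of 9 targets. H3K27me3 was listed at 5 of the 10 ligand genes (KITLG, CSF1, PDGFA, PDGFB and PDGFD) and otherwise at GAB1, AKT1, DUSP4 and CCND2. At the ligands H3K27me3 had between 0.557 and 15.4 CPM per kb in DMSO, and of the 4 that were tested none passed.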

How the data were processed

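In MOLM-13 cells, 4 histone modifications (H3K4me3, H3K4me1, H3K27ac, H3K27me3) were measured by Cut&Tag, with 2 DMSO and 2 PR-957 libraries each, grouped by the sample labels. The authors aligned reads to hg38 with Bowtie2 and deposited raw whole-number counts per interval, on 1 list of partly overlapping intervals for the 4 libraries of a modification. The submitters' processing notes name Trimmomatic 0.39, Bowtie2 2.2.5, Picard 2.27.1, SAMtools 1.7, SEACR 1.3 and deepTools 3.5.1. The methods name MACS2 or SEACR as peak caller, and the counting tool and the handling of duplicate reads are not given in the sources used here. If duplicates were kept, counts would include copies of the same fragment. The IgG libraries are not analysed here.

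Counts were tested with edgeR 4.0.16 (quasi-likelihood, R 4.3.3) after filterByExpr with a minimum count of 10 and TMM normalization, with Benjamini-Hochberg adjustment over all intervals of a modification and a threshold of 0.05. CPM are counts scaled to a common library total (1e6 counts), the total being that over the listed intervals multiplied by its TMM factor. An exact permutation test of 2 against 2 libraries cannot go below p = 0.333 and was not used. Each gene was represented, per modification, by the promoter interval with the highest mean count, and the named intervals are the representing, the called and the smallest-p intervals of each gene, with the main separate loci. Pathway genes named are those called and the 4 with the smallest p. The 8 genes and all lists were chosen with earlier results of these data known. Alternatives were median-of-ratios factors, library size, cyclic loess, DESeq2 1.42.0, other count filters, start windows and flanks, a replicate block, leaving out each library, and, chosen after seeing the data, GC offsets (loess span 0.3), canonical starts and separate loci. The test was tested on simulated data with 200 changed intervals. Replicates of a group differed by more than sampling noise (chi-square per degree of freedom 2.06 to 2.90), so none was taken for a duplicate.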

Additional observations from a re-analysis of the deposited data

How the results depend on the processing

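The lower H3K27me3 at PDGFRA passed under every alternative run for it, and the number of called H3K27me3 intervals of the 8 genes was 4, apart from 8 with flanks of 50 kb and 1 when counted as separate loci. The H3K4me1 calls in FLT3 were the least stable: 3 intervals passed, against 0 with DESeq2, 0 with GC offsets, 1 as separate loci, and 0 to 3 when 1 library was left out. The log2 fold change of the FLT3 interval of smallest p was 0.54 with DESeq2, 0.43 with GC offsets and 0.51 to 0.57 without 1 library. Among pathway genes, 1 passed in H3K27me3, against 3 with cyclic loess, 2 with a mean count of at least 50, 2 with GC offsets and 0 to 2 without 1 library. In H3K4me1 2 passed, against 1 with cyclic loess, 0 with DESeq2, 0 with GC offsets, 1 with a start window of 5 kb and 0 to 2 without 1 library. The cause was not tested. The correlation of same-numbered libraries was -0.0089 in H3K27ac, -0.0069 in H3K27me3 and 0.0068 in H3K4me1, and 0.17 in H3K4me3, and with 2 libraries a group and no shared source in the labels the numbers were not taken to pair them. With the replicate number as a block, the counts of called intervals of the 8 genes were 4 in H3K27me3, 3 in H3K4me1 and 0 in H3K27ac and H3K4me3, PDGFRA had -0.47 (adjusted p = 0.000453) and FLT3 0.54 (adjusted p = 0.0165). Some intervals rest on few reads, such as H3K27ac at KIT with 7 to 30 per library.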
